A study of Mus musculus with 24 samples.

Results

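The genes described here are the plasminogen activators Plat and Plau, the urokinase receptor Plaur, and Serpine2, Serpinb2 and Serpinf1, which belong to the serpin family, in whole ovaries of the mouse lines FL1 and DUKsi. The members were chosen by gene symbol, and each probe set annotated to one of them was taken. On the array a transcript is measured by a set of short oligonucleotides, called a probe set. In this way 7 probe sets were found for 5 of the 6 genes, out of 12393 genes that had a probe set of their own. No probe set was annotated to Serpine2, so that this gene was not analysed here.

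The question of the experiment was which ovarian transcripts differ in abundance between a mouse line of high fertility and its control. FL1 had been selected to generation 130 for an index of litter size and litter weight at birth. DUKsi came from the same genetic pool, a cross of inbred and outbred lines, and was kept without selection by full-sib mating, so that the effects of selection, inbreeding and drift cannot be told apart between the lines. Ovaries were taken at metestrus, shortly after ovulation, from virgin females of 6 to 9 weeks, 30 per line according to the methods. Their RNA was combined to 6 pools per line, which gives 5 animals per pool, whereas the labels name 6. Each pool was hybridized to 2 arrays, and the mean of these arrays is the value of a pool. The values are linear MAS5 signals, and the number of pools limits the precision of each comparison.

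Plasminogen is an inactive protease precursor that circulates in blood and enters follicular fluid. Tissue-type plasminogen activator (Plat) and urokinase (Plau) cleave it to plasmin, which digests fibrin and matrix proteins and activates other proteases, and the urokinase receptor (Plaur) holds urokinase at the cell surface. Serpins trap such proteases in inactive complexes: Serpinb2 is plasminogen activator inhibitor type 2 and Serpine2 is protease nexin 1. Serpinf1, the pigment epithelium-derived factor, has the fold of a serpin and is known for acting against the growth of vessels, but it does not inhibit proteases. In rodent ovaries the activators are known for their induction by gonadotropins before ovulation and for their part in the breakdown of the follicle wall.

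In the RefSeq gene table of the GRCm38.p6 assembly Plat lies at chr8:22757722-22782848, Plau at chr14:20836662-20843388 and Plaur at chr7:24460937-24475970. Serpine2 and Serpinb2 share a chromosome, at chr1:79794317-79858665 and chr1:107500892-107525600. Serpinf1 lies at chr11:75410029-75422623. Promoter sequences of 4 of the 6 members were at hand, and the 150 bases before an annotated start are printed 5′ to 3′ for the measured ones among them, so that the start regions of a gene at background signal (Serpinb2) and of genes well above it (Plaur, Serpinf1) can be read beside their values. Capitals mark matches to the motifs searched on both strands, the TATA box, the GC box, the AP-1 site and the CRE, whose letters are given with the counts after the sequences.
Plaur, chr7:24462333-24462482, plus strand: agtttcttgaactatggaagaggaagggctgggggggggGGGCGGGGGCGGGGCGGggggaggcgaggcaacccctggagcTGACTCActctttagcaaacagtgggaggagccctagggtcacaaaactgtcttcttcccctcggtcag
Serpinb2, chr1:107511273-107511422, plus strand: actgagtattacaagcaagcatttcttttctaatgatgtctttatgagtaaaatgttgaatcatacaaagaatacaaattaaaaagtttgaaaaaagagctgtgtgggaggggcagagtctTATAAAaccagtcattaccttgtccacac
Serpinf1, chr11:75422624-75422773, minus strand: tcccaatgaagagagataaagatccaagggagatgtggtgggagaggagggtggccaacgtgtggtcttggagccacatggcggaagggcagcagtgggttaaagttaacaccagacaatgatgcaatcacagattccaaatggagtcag
The Plaur window held 3 GC boxes (GGGCGG) in direct succession, the last of them sharing a base with the one before, and 1 AP-1 site, searched as TGACTCA, and 62.7% of its bases were G or C. The Serpinb2 window held a TATA box (TATAAA) that starts 29 bases before the annotated start, in a sequence with 33.3% G or C. Serpinb2 had a second annotated start, with a window from chr1:107511360 that is not printed, and there the TATA box starts 116 bases before it. The printed windows of Plaur and Serpinb2 lie inside the gene intervals given above, not before them. In the Serpinf1 window, with 50.7% G or C, none of these motifs was found, nor was the CRE (TGACGTCA). Of 32851 windows of the same length, 28.6% held a GC box, 7.57% a TATA box, 2.84% the AP-1 site and 1.36% the CRE. These matches describe the sequence and do not show that a factor binds there.

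Across the 24 arrays the trimmed mean signal was 500.1 and the median signal between 212.05 and 244.5. The 20th percentile of all signals, 48.4, serves below as the mark of a low signal. The beta-actin controls give a ratio of 3′ over 5′ signal that rises when the 5′ part of a transcript is lost. It is taken here as a sign of RNA integrity, which was not measured otherwise. It was 1.67 ± 0.423 in FL1 pools and 1.27 ± 0.0522 in DUKsi pools (SD, n = 6; exact permutation test, two-sided, p = 0.00216, the lowest value this design can give). The ratio ran from 1.32 to 2.45 in FL1, with the highest value in FL1 pool 3, and from 1.18 to 1.32 in DUKsi, without overlap of the lines. Signals come from whole ovaries, so that fewer cells of a type and less RNA per cell cannot be told apart. Among the genes fixed as cell type markers, 4 of 8 measured luteal genes were higher in FL1 and past the test that is defined below. Of the granulosa genes 2 of 10, and of the oocyte genes 1 of 9, were past it and lower. Over all genes 2.08% were past it and higher in FL1, and 1.65% were past it and lower. The summed signal of the luteal markers lay between 59815 and 67603 in FL1 pools and between 32372 and 47309 in DUKsi pools. Their part in the results was not tested.

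In the comparison of FL1 with DUKsi, none of the 5 measured members passed the test. The nearest was Plau, by its brighter probe set, which was lower in FL1 at an unadjusted p under 0.05 but not after adjustment for all probe sets. The test was limma on log2 signals of the 12 pools, with Benjamini-Hochberg adjustment over 22626 probe sets, and a probe set was past it at an adjusted p under 0.01. Of the 7 probe sets 0 were past the test by limma, 0 by the methods' t-test after the same adjustment, and 1 had an unadjusted p under 0.05. Over the whole array 3.38% of the probe sets were past the test and 19.8% had an unadjusted p under 0.05. The mean log2 signal of 5 probe sets was lower in FL1 and that of 2 was higher, with a median log2 fold change of -0.10 against -0.069 for all probe sets. The lines overlapped at each of the 7 probe sets, whereas they did not at 4.62% of all. For 4 of the 7 the 95% interval still held a difference of 1.5-fold.

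**Figure D1:**
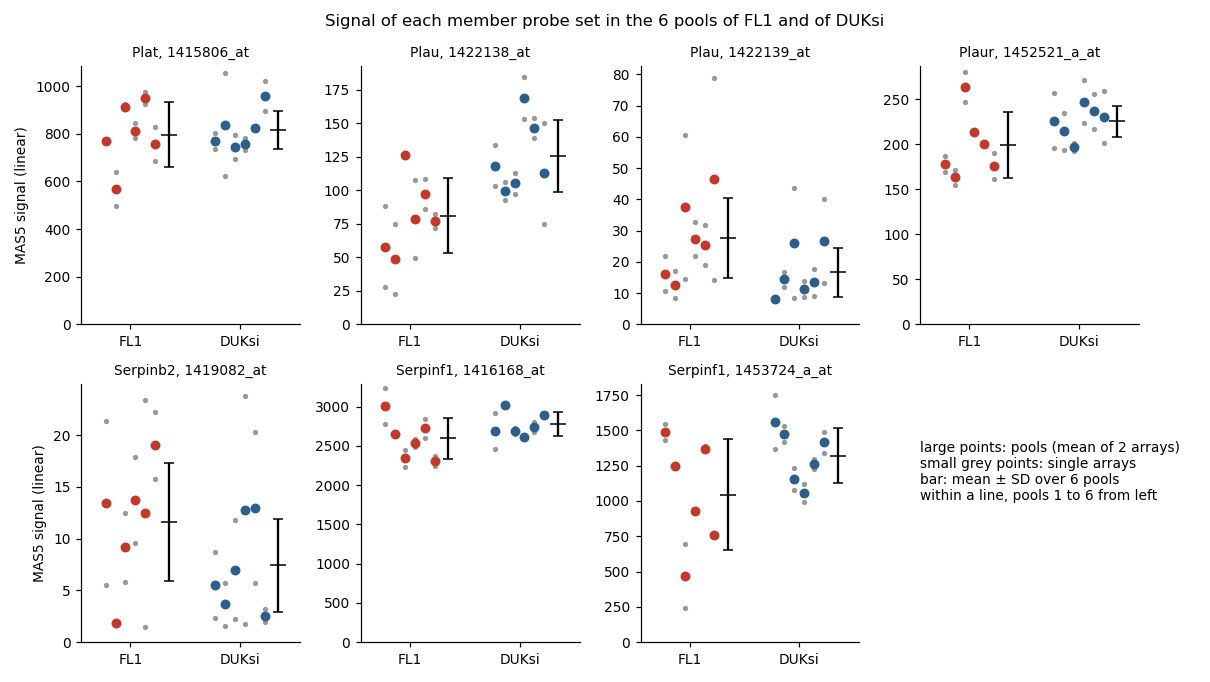
MAS5 signal (linear scale, from 0) of the 7 probe sets of Plat, Plau, Plaur, Serpinb2 and Serpinf1, with 1 large point per pool, small grey points for its single arrays, and the mean and SD of the 6 pools of each line. The FL1 and DUKsi pools overlap in every panel, and 5 of the 6 FL1 pools lie under all DUKsi pools for Plau 1422138_at.

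Plat, the tissue-type activator that works mainly on fibrin, was measured by the probe set 1415806_at. Its signal in FL1 pools was 568 at the lowest, 793 at the median and 951 at the highest. In DUKsi pools the lowest was 746, the median 798 and the highest 959. The medians lay close together, and only FL1 pool 2 stood below the range of DUKsi. The means of the 6 pools were 796 ± 136 (SD) for FL1 and 816 ± 79.3 (SD) for DUKsi. FL1 differed from DUKsi by a log2 fold change of -0.050 with a standard error of 0.111 (limma, adjusted p = 0.850). Its 95% interval corresponds to 0.820- to 1.14-fold, so that a difference of 1.5-fold lies outside it. Without FL1 pool 2 the log2 fold change was 0.044, and arrays scaled to the same median gave 0.037, so that its direction was not settled.

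Plau, which encodes urokinase, was measured by a brighter and a dim probe set. With 1422138_at, the brighter one, the FL1 pools ran from 48.6 over a median of 77.8 to 126.5. The DUKsi pools ran from 99.7 over a median of 115 to 169. FL1 pool 3 alone reached into the range of DUKsi, and the other 5 FL1 pools lay below every DUKsi pool. The means of the 6 pools were 80.9 ± 28.1 (SD) for FL1 and 125 ± 26.8 (SD) for DUKsi, a ratio of 0.647. The log2 fold change was -0.67 with a standard error of 0.229 and a 95% interval from -1.16 to -0.19, and the adjusted p of limma was 0.0979. Between arrays of the same pool the SD of this probe set was 0.593 on the log2 scale, more than the SD between pools of 0.498 in FL1 and 0.295 in DUKsi. The first arrays of FL1 pools 1 and 2 gave 27.7 and 22.7, under the low-signal mark of 48.4.

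The second Plau probe set, 1422139_at, stayed under the low-signal mark of 48.4 in all 12 pools. It gave 12.7 to 46.6 in FL1 with a median of 26.4, and 8.05 to 26.7 in DUKsi with a median of 13.9. On the log2 scale FL1 minus DUKsi was 0.73 with a standard error of 0.384 (limma, adjusted p = 0.316), and the pools of the lines overlapped. At this signal level it gives no reading of the direction of Plau.

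Plaur, the receptor that binds urokinase on the cell surface, was measured by 1452521_a_at. The FL1 pools gave 163 at the lowest, 189 at the median and 263 at the highest. The DUKsi pools gave 197 at the lowest, 228 at the median and 247 at the highest. The lowest 3 FL1 pools lay below every DUKsi pool, and FL1 pool 3 lay above all of them. With means of 199 ± 36.3 (SD) for FL1 and 225 ± 17.5 (SD) for DUKsi over 6 pools, the log2 fold change was -0.19 with a standard error of 0.127 (limma, adjusted p = 0.435). The 95% interval ran from 0.725- to 1.05-fold.

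Serpinb2, the type 2 inhibitor of both activators, was at background by 1419082_at. Its highest pool signal was 19 in FL1 and 13 in DUKsi, with medians of 12.95 and 6.25. For comparison, the 3 control probe sets of the bacterial tryptophan operon gave pool signals from 1.25 to 28.5 with a median of 6.2. Each Serpinb2 pool thus lay within the range of sequences that mouse RNA does not hold. A log2 fold change of 0.61 had a standard error of 0.558 and a 95% interval of 0.669- to 3.46-fold (limma, adjusted p = 0.595), and the SD between arrays of the same pool was 1.48 on the log2 scale.

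Serpinf1, the serpin without inhibitory activity, had a pair of probe sets with high signals. With 1416168_at the FL1 pools gave 2309, 2596 and 3008 at the lowest, the median and the highest, and the DUKsi pools gave 2607, 2717 and 3021. The median of FL1 lay below the lowest DUKsi pool, although the highest pools of the lines were alike in signal. The means of the 6 pools were 2596 ± 260.2 (SD) for FL1 and 2774 ± 153 (SD) for DUKsi. The log2 fold change was -0.10 with a standard error of 0.0699 (limma, adjusted p = 0.466) and an interval from 0.842- to 1.03-fold, so that a difference of 1.5-fold lies outside it.

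The other Serpinf1 probe set, 1453724_a_at, varied more between pools. Its FL1 pools ran from 468 over a median of 1090 to 1491, and its DUKsi pools from 1059 over 1338 to 1561. Within FL1 the SD between pools was 0.632 on the log2 scale, against 0.217 in DUKsi. The lowest value was that of FL1 pool 3, whose arrays gave 241 and 694.8. The log2 fold change was -0.43 with a standard error of 0.225 (limma, adjusted p = 0.312), and without FL1 pool 3 it was -0.22. Both Serpinf1 probe sets were lower in FL1 without passing the test.

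**Figure D2:**
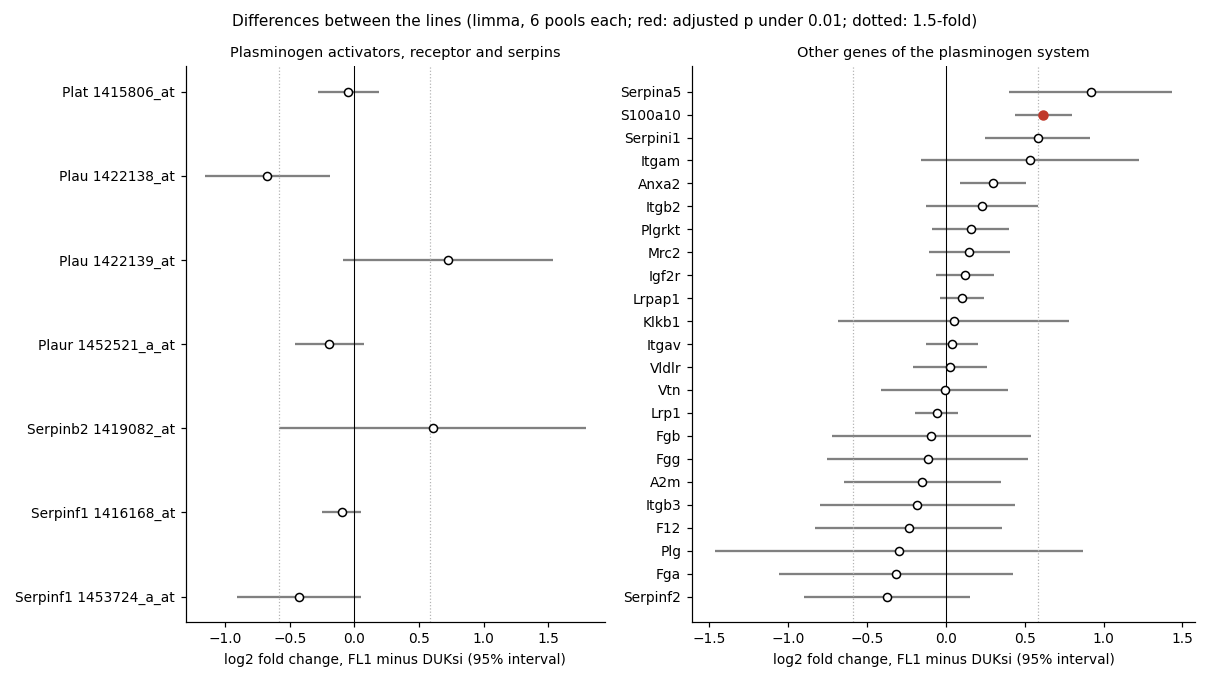
Log2 fold change of FL1 minus DUKsi with its 95% interval from limma, for the probe sets of the members and for the other genes of the plasminogen system, 1 probe set per gene. Red marks an adjusted p under 0.01 and dotted lines a 1.5-fold difference. Plau 1422138_at, at -0.67, has an interval to 1 side of 0 without being past the test, and S100a10, at 0.62, is the only gene in red.

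The wider plasminogen system was described with 26 other genes, of which 23 had a probe set of their own. By the brightest probe set of each gene, 1 rose in FL1, 0 fell and 22 did not pass the test, whereas 2.08% of all genes rose and 1.65% fell. The median log2 fold change was 0.039, against -0.048 over all genes, of which 3.74% were past the test. An unadjusted p under 0.05 was found for 4 of the 23 genes, and for 20.6% of all genes.

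The gene that rose was S100a10, which forms a complex with annexin A2 that binds plasminogen and Plat at the cell surface. Its signal by 1416762_at was 2505 at the lowest, 3200 at the median and 3472 at the highest in FL1 pools. In DUKsi pools it was 1845 at the lowest, 1933 at the median and 2135 at the highest. All 6 FL1 pools lay above all 6 DUKsi pools. The log2 fold change was 0.62 with a standard error of 0.0844 (limma, adjusted p = 0.000218). A second probe set, 1456642_x_at, of a type that can cross-hybridize, gave 0.12 (adjusted p = 0.661).

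Anxa2, the partner of S100a10, had means of 4576 ± 616 (SD) for FL1 and 3705 ± 439 (SD) for DUKsi. Its log2 fold change of 0.30 did not pass the test (limma, adjusted p = 0.0845). The other genes of the list with an unadjusted p under 0.05 were a pair of serpins. Anxa2 and these serpins are named here after their values were seen. Serpina5, the protein C inhibitor that also acts on urokinase, ran from 959.9 to 1627 in FL1 and from 338 to 963 in DUKsi. Its log2 fold change was 0.92 with a standard error of 0.243 (limma, adjusted p = 0.0320). Serpini1, neuroserpin, an inhibitor of Plat known from the nervous system, ran from 179 to 276 in FL1 and from 137 to 235 in DUKsi by 1416702_at. Its log2 fold change was 0.58 (limma, adjusted p = 0.0348), whereas its other probe set, 1448443_at, gave -0.39 (adjusted p = 0.190). The inhibitors of the activators that had a probe set thus gave adjusted p values above 0.01.

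Plg, the substrate itself, which is made in the liver, had a signal near the low-signal mark, with 46.1 ± 22.6 (SD) for FL1 and 58.6 ± 31.5 (SD) for DUKsi. Its log2 fold change was -0.29 (limma, adjusted p = 0.814). In 5 of the 23 genes the means of both lines were under the mark of 48.4. Lrp1, the receptor that takes up complexes of activator and inhibitor, gave a log2 fold change of -0.058 (limma, adjusted p = 0.665).

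Among 28 other serpin genes 1 rose, 1 fell and 26 did not pass the test, with a median log2 fold change of -0.12. Over all genes 2.08% rose and 1.65% fell. The lists share genes: Serpina5, Serpini1 and Serpinf2 also stand in the plasminogen list, and Serpinc1, Serpind1 and Serping1 in the coagulation list described below. Serpina3a belongs to a cluster of closely similar genes, so that its signal may hold more than 1 of them. It ran from 334 to 752 in FL1 with a median of 535, and from 891 to 1590 in DUKsi with a median of 1209. All FL1 pools lay below all DUKsi pools, at a log2 fold change of -1.15 with a standard error of 0.189 (limma, adjusted p = 0.00112). By the methods' t-test the call was lost, with adjusted p values of 0.0154 on linear and 0.0159 on log2 signals. Serpina3n, of the same cluster and known from the acute phase response, had means of 91.8 ± 30.0 (SD) for FL1 and 31.7 ± 25.1 (SD) for DUKsi, where the mean and 5 of the 6 pools lay under the low-signal mark. Its log2 fold change of 1.78 was just past the test (limma, adjusted p = 0.00959) and was not past it under 19 of 29 other settings.

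In the coagulation list 0 of 17 genes rose, 2 fell and 15 did not pass the test, with a median log2 fold change of -0.023. The shares over all genes were 2.08% that rose and 1.65% that fell. F2r, the thrombin receptor, ran from 639.65 to 870 in FL1 with a median of 733, and from 1011 to 1332 in DUKsi with a median of 1189. The lines did not overlap, and the log2 fold change was -0.67 with a standard error of 0.0919 (limma, adjusted p = 0.000244). Its second probe set, 1450852_s_at, gave -0.82 (adjusted p = 0.00715). Both this probe set and the first, 1437308_s_at, are of a type whose probes can match more than 1 transcript. Tfpi, the inhibitor of the tissue factor pathway, had means of 613 ± 103 (SD) for FL1 and 859 ± 70.9 (SD) for DUKsi. Its log2 fold change of -0.50 passed the test by 1451791_at (limma, adjusted p = 0.00889), although the lines overlapped at 740 to 746 and this call was lost under 18 of 30 other settings. A second probe set, 1452432_at, gave -0.49 without overlap of the lines (adjusted p = 0.00389), and another, 1451790_a_at, gave -0.43 (adjusted p = 0.143).

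Relations between members were then looked at over the 6 pools of each line, after their values had been seen. With 1 probe set per gene, 20 relations were computed, 10 in each line. Plau and Plaur, the protease and its receptor, were positively related in both lines. In FL1 Pearson's r was 0.890 (exact permutation test, p = 0.0167, adjusted 0.25) and Spearman's rho 0.886 (exact permutation p = 0.0333, adjusted 0.167). In DUKsi r was 0.825 (exact permutation test, p = 0.0375, adjusted 0.25) and rho 0.886 (exact permutation p = 0.0333, adjusted 0.167). Without the 2 pools farthest from the median of Plau, r was 0.565 in FL1 and 0.630 in DUKsi, so that much of the relation rests on those pools. Plat and Plau gave r = 0.871 in FL1 (exact permutation test, p = 0.0264, adjusted 0.25) but r = -0.256 in DUKsi (exact permutation p = 0.632), and the difference between the lines was not tested. None of the 20 relations had an adjusted p under 0.05.

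The signals were also set against the actin ratio, which varied mainly within FL1. Of 14 relations, 1 for each probe set and line, none had an adjusted p under 0.05. By Pearson's r the strongest was that of Serpinf1 1453724_a_at in FL1, with r = -0.964 (exact permutation test, p = 0.00833, adjusted 0.117) and rho = -0.829 (exact permutation p = 0.0583, adjusted 0.360). It was r = -0.953 without the 2 pools farthest from the median ratio. In DUKsi, where the ratio hardly varied, r was -0.592 (exact permutation p = 0.225, adjusted 0.525). For Serpinf1 1416168_at r was -0.785 in FL1 (exact permutation p = 0.0528, adjusted 0.185), or -0.982 without the 2 pools, and 0.180 in DUKsi (exact permutation p = 0.711). By Spearman's rho the strongest was the dim Plau probe set 1422139_at in FL1, with rho = 0.943 (exact permutation p = 0.0167, adjusted 0.233) and r = 0.776 (exact permutation p = 0.0681, adjusted 0.191), or r = 0.928 without the 2 pools. Plau 1422138_at and Plaur had positive coefficients in FL1 as well, with r = 0.849 and r = 0.858 (exact permutation test, p = 0.0292 each, adjusted 0.136). Without the 2 pools farthest from the median ratio, FL1 pool 3 among them, r was 0.475 for Plau 1422138_at and 0.202 for Plaur, so that these values rest on those pools.

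**Figure D3:**
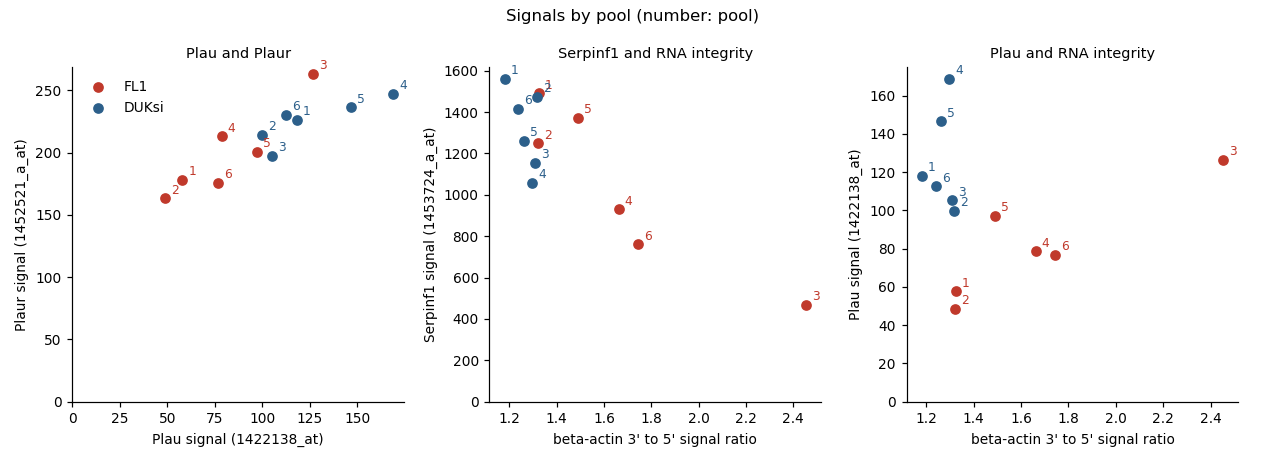
MAS5 signals by pool, labelled with the pool number, for Plau against Plaur and for Serpinf1 1453724_a_at and Plau 1422138_at against the beta-actin 3′ to 5′ signal ratio. Plau and Plaur rise together in both lines, FL1 pool 3 stands apart at an actin ratio of 2.45, and the FL1 points of Serpinf1 fall as the ratio rises.

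With the log2 actin ratio as a covariate in limma, the log2 fold change of Plau 1422138_at was -1.12 with a standard error of 0.236, and its adjusted p of 0.00689 was past the test. When FL1 pool 3 was left out as well, which was decided once the values were known, the difference was again -1.12 but the adjusted p of limma was 0.0287. Without FL1 pool 3 and with no covariate it was -0.82 (limma, adjusted p = 0.0241). Plaur had a log2 fold change of -0.41 with the covariate (limma, adjusted p = 0.0508) and of -0.28 without FL1 pool 3 (adjusted p = 0.132). Both Serpinf1 probe sets turned their direction with the covariate, to 0.015 for 1416168_at (limma, adjusted p = 0.913) and to 0.24 for 1453724_a_at (adjusted p = 0.196). As the ratios of the lines did not overlap, the covariate sets the lines against each other at a ratio that pools of only 1 line reached. The effects of line and of what the ratio reflects cannot be fully told apart.

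**Figure D4:**
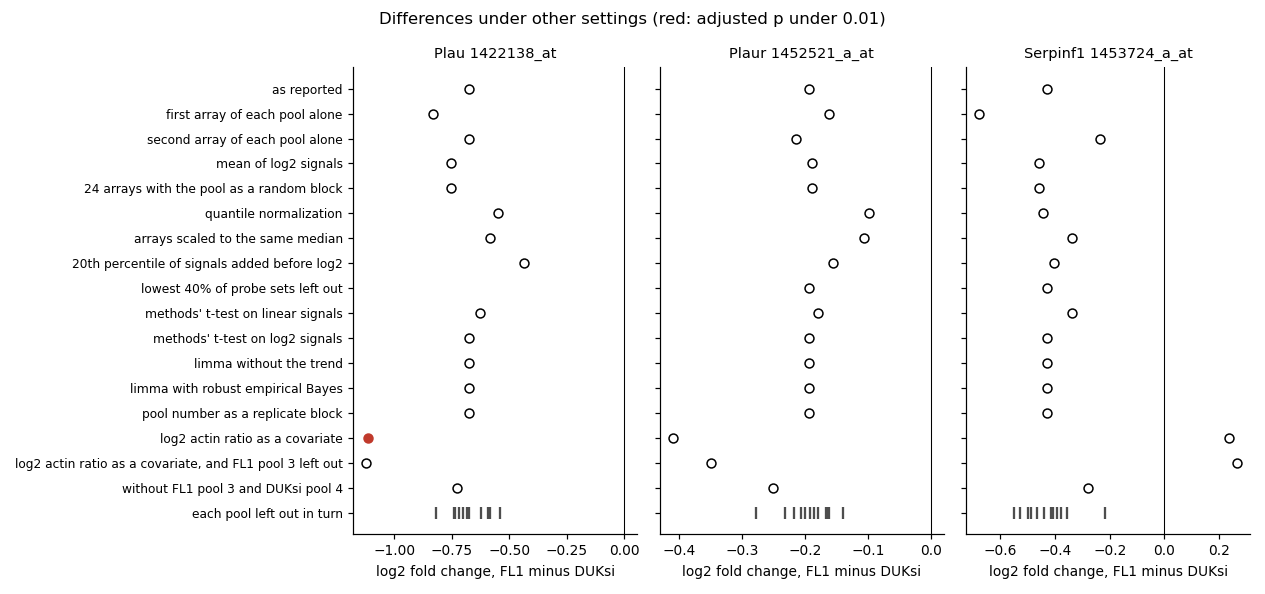
Log2 fold change of FL1 minus DUKsi for Plau 1422138_at, Plaur 1452521_a_at and Serpinf1 1453724_a_at under each processing setting, with ticks for each pool left out in turn and red for an adjusted p under 0.01. Plau and Plaur stay below 0 in the settings drawn, Plau passes the test with the actin covariate alone, and Serpinf1 turns to 0.24 under that covariate.

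The genes most like each member were taken by Pearson's r over the 12 pools, on log2 signals minus the mean of the line, among 10419 candidate probe sets, as a description. Plat went most with Riok1 (r = 0.971) and Srcap (r = 0.941). Plau went most with Kif3c (r = 0.962) and Bfar (r = 0.953), and Plaur with Slc35e1 (r = 0.949) and Lnx2 (r = 0.946). For Serpinf1 they were Dnajc11 (r = 0.940) and Cachd1 (r = 0.938), and for Serpinb2, at background, Fyn (r = 0.872) and Hexa (r = 0.862). None of these genes was past the test between the lines. The points share the arrays, their scaling and the RNA of the pools. Values of r picked as the highest of 10419 candidates are high by selection, and even Serpinb2, at background, reached 0.872. Of the 30 nearest measured genes on the chromosomes of the 5 measured members, 3 on each side, 0 were past the test in limma and 3 had an unadjusted p under 0.05. Over all genes these shares were 3.74% and 20.6%. Not all of the nearest measured genes were close: those of Serpinb2 included Tsn and Nifk, 10773 and 10796 kb away.

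Markers of other cell types that a whole ovary can hold were summed for each pool. For comparison with the counts below, 3.74% of all genes were past the test in either direction. Macrophage markers, of which 0 of 9 passed the test, gave 6354 to 8183 in FL1 and 5069 to 7770 in DUKsi. Neutrophil markers, with 0 of 7 past it, gave 546 to 1000.3 in FL1 and 467 to 2513 in DUKsi. Most of the DUKsi range came from Ltf alone, at 436 ± 688 (SD) in DUKsi and 157 ± 35.1 (SD) in FL1. The sum is thus no reading of neutrophil content. Endothelial markers, with 1 of 10 past it, gave 5113 to 5820 in FL1 and 4459.5 to 5273 in DUKsi. Granulosa markers gave 34393 to 41428 in FL1 and 41686 to 49509 in DUKsi without overlap, and theca markers, with 0 of 4 past the test, 5330.5 to 8141 and 7090.5 to 11102. Smooth muscle markers (1 of 6 past the test) gave 18546 to 21401 in FL1 and 18114 to 24441 in DUKsi, stroma markers (1 of 6) 36512 to 46009 and 36832 to 45879, and markers of surface epithelium and oviduct (1 of 9) 2398.5 to 2842 and 1499 to 7749. In the list of surface epithelium and oviduct Ovgp1 varied most, at 797 ± 1306 (SD) in DUKsi and 239 ± 81.0 (SD) in FL1. Oocyte markers gave 7507 to 9906 in FL1 and 9982 to 11839 in DUKsi. Granulosa and theca cells are known sites of Plau and Plat in the rodent ovary, and the part of their share in the lower Plau signal was not tested.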

How the data were processed

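Ovary RNA of 12 pools, 6 of FL1 and 6 of DUKsi, had been hybridized to 24 Affymetrix mouse expression arrays. The intensity values deposited by the authors are MAS5 signals on a linear scale, 1 per probe set, scaled by the authors to a common target intensity on each array. The version of MAS5 is not given in the labels.

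From these signals the mean of the 2 arrays of a pool was taken. After log2 transformation both lines were compared with limma 3.58.1 under R 4.3.3, with a linear model and moderated variances that follow the signal level. Of 22690 probe sets, 64 controls were left out, and p-values were adjusted by Benjamini-Hochberg over the other 22626. The annotation gave 1 gene for 20380 probe sets, several genes for 691 and none for 1555, controls included. In gene lists each gene stands by its brightest probe set, provided that no second gene is annotated to it. The SD is between pools. Per the methods the animals of a line came from many litters and were assigned so that the pools had alike mean litter sizes of origin. The tests judge the difference of the lines against the spread between these pools, not between animals. Pools balanced in this way may differ less than pools formed at random. No array repeated the values of another.

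The members and gene lists were chosen with earlier results of these data known. The members were named with every probe set, up to 5 genes past the test in each other list, the 2 genes most like each member, and chromosomal neighbours by count. The cell type lists were luteal, granulosa, theca, oocyte, macrophage, neutrophil, endothelial, smooth muscle, stroma, and surface epithelium with oviduct. The procedure was tested on simulated data, with changes placed only in probe sets brighter than those of Plau, Plaur and Serpinb2. It thus does not tell how often a change at their signal level would be found. Alternatives were single arrays, the mean of log2 values, all arrays blocked by pool, quantile and median scaling, a constant before log2, removal of dim probe sets, the methods' t-test, limma without trend or with robust settings, the pool number as a block, the actin ratio as a covariate, other thresholds, all probe sets of a gene, and pools left out. Pool numbers were not taken as pairs. Promoter sequences and gene positions came from RefSeq on GRCm38.p6.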

Additional observations from a re-analysis of the deposited data

Results flagged for a closer look

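Of 26 sets of 6 pools looked at, which cover the members, the other genes past the test and the actin ratio, 2 held a pool far from the others of its line by Dixon's ratio. Chance marks about 1 in 20 such sets. The beta-actin 3′ to 5′ ratio of FL1 pool 3 was 2.45, and the next FL1 pool was at 1.74 (Dixon's ratio 0.627). The Serpina3n signal of DUKsi pool 4 was 80.5, and the next DUKsi pool was at 30.1 (Dixon's ratio 0.736).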

How the results depend on the processing

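With 6 pools per line, 4 of the 7 probe sets of the members had intervals that hold a 1.5-fold difference, and Plau 1422139_at and Serpinb2 were too dim to be read. The number of these probe sets past the test was 0, and 0 to 0 with each pool left out. It was 1 with the actin covariate, which was Plau 1422138_at, and 0 again when FL1 pool 3 was also left out, a setting added after seeing the data. Plau 1422138_at kept its direction under the 29 settings that measured it, from -1.12 to -0.44 on the log2 scale with adjusted p values of 0.00689 to 0.314 (limma or the methods' t-test). Leaving out the lowest 40% of probe sets removed it as dim, so that this setting gave no value for Plau. Plaur kept its direction under all 30.

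Directions turned for Plat on the second arrays (0.025), with median scaling (0.037) and without FL1 pool 2 (0.044), within -0.10 to 0.044 over single pools left out. They turned for Serpinb2 on the second arrays (-0.016), for Serpinf1 with the actin covariate (0.015 for 1416168_at, 0.24 for 1453724_a_at), and with the covariate and no FL1 pool 3 for Serpinf1 (0.058 and 0.27), Serpinb2 (-0.47) and Plau 1422139_at (-0.33). The cause was not tested.

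Of the other plasminogen system, 1 gene was past the test, against 2 with all arrays and the pool as a random block, 2 with the covariate, 3 at an adjusted p under 0.05, and 1 to 2 with a pool left out, 2 being reached without FL1 pool 3. S100a10 kept its direction throughout and missed the test on the first arrays alone (0.54, adjusted p = 0.0140 by limma, within 6.33e-06 to 0.0140 over all settings). Of the other serpins, 2 were past the test, against 1 on the second arrays, 1 with the dim probe sets left out, 1 without the trend, 1 with the replicate block, 0 by the methods' t-test on linear or log2 signals (0 and 0), 3 with the pool as a random block, 4 with the covariate, 4 at an adjusted p under 0.05, and 1 to 2 with a pool left out. Of the coagulation genes, 2 were past it, against 1 on the first or the second arrays, with quantile or median scaling, by the methods' t-test on either scale, without the trend or with the 1.5-fold threshold, and 1 to 2 with a pool left out. F2r passed under all 30 settings. At an adjusted p under 0.05, Serpina5 and Serpini1 were counted both in the plasminogen list and among the other serpins. The actin ratio differed by 0.241 to 0.468 with a pool left out.

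Pools of the same number deviated with correlations of -0.264 to 0.167, 2 of 6 above 0.1, so that the numbers do not pair the pools. With the pool number as a replicate block 0 member probe sets were past the test, and Plau 1422138_at had an adjusted p of 0.120 by limma. Scalings moved the median of all probe sets from -0.069 to -0.018 (quantile) and 0.018 (median).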
